A study of Mus musculus with 4 samples.

Results

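The enzymes of glycolysis, the glucose and lactate transporters and a set of hypoxia-responsive genes were followed in mouse molar tooth germs kept in organ culture with a dioxin or with its solvent. Of 35 genes listed, 29 had at least 1 probe set annotated to that gene alone, and these genes had 44 of the 12488 probe sets on the array. Gpi1, Slc16a3, Bnip3l, Egln3, Eno1 and Car9 were listed without such a probe set. Mandibular molar regions of NMRI embryos at embryonic day 14 were cultured for 24 h in medium with 10% fetal calf serum. The DMSO group received 0.65% DMSO and the TCDD group 1 µM TCDD (2,3,7,8-tetrachlorodibenzo-p-dioxin, dissolved in DMSO). Each group had 2 arrays, numbered 1 and 2 in the labels, and each array carried the RNA of about 60 pooled explants from 3 experiments. No genetic alteration is named in the labels. A pooled explant holds epithelium, mesenchyme and any adjoining tissue, so fewer cells of a type and less RNA per cell cannot be told apart.

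Glycolysis splits glucose into pyruvate in the cytosol, and lactate dehydrogenase turns pyruvate into lactate when it is not oxidised in mitochondria. Under low oxygen the transcription factor HIF-1, a pair of Hif1a and Arnt, raises many of these genes through hypoxia response elements. The aryl hydrocarbon receptor, which binds TCDD, uses the same partner Arnt and recognises a core, GCGTG, that is also found in some hypoxia response elements. The data therefore bear on whether genes of this pathway differed after TCDD, and on how far they differed between pools of the same treatment.

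The promoters of the genes on which the results below turn are shown first, so that windows with and without the letters of hypoxia and dioxin response elements can be compared. Each is the stretch of 250 bases that ends just before the annotated start of the gene in RefSeq (GRCm38.p6), read 5′ to 3′ on the strand of the gene. Capitals mark ACGTG or GCGTG on either strand, where adjoining matches run together, as in the letters CACGTG, which hold ACGTG on both strands.
Slc2a1 (chr4:119108495-119108744, plus strand): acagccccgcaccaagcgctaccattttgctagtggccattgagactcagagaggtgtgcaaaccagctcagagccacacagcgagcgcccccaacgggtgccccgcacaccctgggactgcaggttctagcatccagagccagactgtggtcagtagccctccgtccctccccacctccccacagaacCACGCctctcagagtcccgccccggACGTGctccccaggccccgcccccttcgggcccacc
Pgam1 (chr19:41911621-41911870, plus strand): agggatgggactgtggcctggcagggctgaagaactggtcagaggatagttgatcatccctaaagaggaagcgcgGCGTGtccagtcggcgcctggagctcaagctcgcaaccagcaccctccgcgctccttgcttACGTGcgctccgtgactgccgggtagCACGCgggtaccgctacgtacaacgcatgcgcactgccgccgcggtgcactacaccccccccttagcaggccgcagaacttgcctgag
Ldha (chr7:46845554-46845803, plus strand): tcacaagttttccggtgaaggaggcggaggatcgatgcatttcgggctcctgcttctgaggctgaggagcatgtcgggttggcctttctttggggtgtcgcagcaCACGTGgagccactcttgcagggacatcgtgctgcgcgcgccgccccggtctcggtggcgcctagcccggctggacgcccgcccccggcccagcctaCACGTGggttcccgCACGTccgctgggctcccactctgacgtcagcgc
Tpi1 (chr6:124814159-124814408, minus strand): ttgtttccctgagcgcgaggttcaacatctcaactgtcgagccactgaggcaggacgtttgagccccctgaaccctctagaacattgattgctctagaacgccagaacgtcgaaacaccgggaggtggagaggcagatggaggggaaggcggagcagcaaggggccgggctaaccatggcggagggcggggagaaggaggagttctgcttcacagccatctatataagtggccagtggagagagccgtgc
Pkm (chr9:59656326-59656575, plus strand): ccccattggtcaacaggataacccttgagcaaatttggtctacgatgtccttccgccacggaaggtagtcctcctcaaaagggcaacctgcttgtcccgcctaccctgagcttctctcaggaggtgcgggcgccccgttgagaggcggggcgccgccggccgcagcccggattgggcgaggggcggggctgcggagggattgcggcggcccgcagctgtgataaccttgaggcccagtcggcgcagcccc

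The windows of Ldha and Pgam1 each held 3 runs of capitals and that of Slc2a1 held 2, whereas those of Tpi1 and Pkm held 0. GCGTG was among the matches of Slc2a1 and Pgam1 and not of the Ldha window shown. For Pkm and for Ldha, a second annotated start had 1 run of capitals in its window. That run was a match to GCGTG for Ldha and to ACGTG for Pkm. RefSeq windows were found for 27 of the 29 genes, 39 windows in all. ACGTG was present in 18 of the 39 (46.2%), against 16.6% of all 32851 windows and 17.8% of the 21263 windows of protein-coding genes. GCGTG was present in 21 of the 39 (53.8%), against 28.2% and 33.8%. Some windows of Aldoa and of Pfkm overlap, so a site can count more than once. By gene, 24 of the 27 (88.9%) had either motif in at least 1 window, against 47.1% of protein-coding genes. The list was chosen for glycolysis and the response to hypoxia, and the part of that choice in these shares was not tested. Both motifs contain the dinucleotide CG, of which the windows of the listed genes had a median of 13, those of protein-coding genes 10 and all windows 6, and its part in these shares was not tested. A match describes letters only, and binding was not measured.

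Signals are MAS5 hybridisation intensities scaled by the authors to a target of 100 on each array. They are not comparable between probe sets. Log2 differences were computed on log2(signal + 16), which understates the change of dim genes. Testing used limma over the 5783 probe sets whose signals averaged 50 or more, with p-values adjusted over all of them, and a probe set was called at an adjusted p under 0.05. Of the 44 probe sets of the listed genes, 24 (19 genes) were tested, 14 were below the minimum and 6 were Affymetrix control probe sets for Gapdh, which were left out of the test. With 2 arrays on each side, the smallest two-sided p of an exact permutation test is 0.33. No detection calls were used, so nothing says which signals were above background.

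Tooth germ markers and a dioxin target were examined first. Of the listed dental mesenchyme markers 14 of 15 were on the array and 13 reached the minimum. For the dental epithelium markers these numbers were 11 of 12 and 8. Below it were Pax9 of the mesenchyme list, with signals between 33.1 and 70.5, and the epithelial keratin genes Krt5, Krt14 and Krt15, at most 10.8. Cyp1a1, the classical target of the aryl hydrocarbon receptor, had DMSO signals of 14.7 and 12.7 at 94715_at, against 194.8 and 210.5 after TCDD. Its limma adjusted p was 0.000368. This probe set reached the minimum only through the TCDD arrays, and 2 of its 4 signals had been stored as calendar days. The other Cyp1a1 probe set, 161831_at, was below the minimum, with 32.5 and 3.6 under DMSO and 15.5 and 18.5 after TCDD. The replicate numbers also separated the arrays: both arrays numbered 1 were made from 11 µg of total RNA, DMSO replicate 2 from 7 µg and TCDD replicate 2 from 8 µg. Only the label of DMSO replicate 2 lists ascorbic acid in the medium. No label says that arrays of the same number came from the same litters or days.

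Genes of glycolysis and the hypoxia response showed no called difference between TCDD and DMSO. None of the 24 tested probe sets passed limma's adjusted p of 0.05, and each had an adjusted p of 0.997. Over all tested probe sets 4 (0.0692%) passed. At an unadjusted p under 0.05 there was 1 of the 24, against 150 of 5783 (2.59%). The median log2 difference over the 19 genes, each represented by its brightest probe set, was 0.05, beside 0.02 over all 4595 genes tested, with 11 higher and 8 lower. Between arrays of the same number, TCDD was above DMSO in 17 of the 24 for replicate 1 (51.6% of all tested) and in 13 of the 24 for replicate 2 (50% of all tested). The treatment groups did not overlap at 3 of the 24, against 29.8% of all tested. All 9 tested macrophage markers of 12 on the array were higher in TCDD (median 0.28). Their summed signals over the 12 were 918.6 and 813.1 under DMSO and 1090.4 and 1081.7 after TCDD. Dental epithelium markers were higher in TCDD for 6 of 8 tested (median 0.17). Over the 11 on the array they summed to 3090.4 and 4111.7 under DMSO and 4166.7 and 4604.2 after TCDD. The bright Dsp, Krt17 and Perp made up most of these sums. Cdh1 went the other way, with 170.3 and 141.1 under DMSO and 101.2 and 120.5 after TCDD, and Shh differed by -0.07. The other marker lists with at least 3 tested genes had medians between -0.06 and 0.11. The part of these tissues in the values of the listed genes was not tested. The median over the glycolysis and hypoxia genes was -0.22 without DMSO replicate 1 and 0.25 without DMSO replicate 2, so its direction depends on single arrays. The sign of the treatment difference turned at 10 of the 24 without DMSO replicate 1, at 5 without DMSO replicate 2 and at 6 without either TCDD array.

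By replicate number the same genes were mostly lower on the arrays numbered 1, in both treatments. Of the 24 probe sets 16 (66.7%) had both replicate 1 signals below both replicate 2 signals, against 1360 of all 5783 (23.5%). Only 1 of the 24, for Eno3, had both replicate 1 signals above, against 20.9%, so 17 of the 24 did not overlap in either direction, against 44.4%. The difference was below 0 for 21 of the 24, against 51.3%. The median log2 difference, replicate 1 minus replicate 2, was -0.29 over the 19 genes, with 17 lower, beside -0.01 over all 4595 genes. No single probe set of the 24 passed limma's adjusted p of 0.05, and 1 (0.0173%) of all tested did. That count rested on single arrays: without TCDD replicate 1, 12 of the 24 and 1325 of all passed, and without DMSO replicate 1, 5 of the 24 and 1089 of all. Without DMSO replicate 2 it was 0 of the 24 and 27 of all, and without TCDD replicate 2 it was 0 and 13. In these fits the lone array of a number is assumed to vary like the others. With treatment as a block, 5 of the 24 passed (Pkm at 96066_s_at, Slc2a1, Tpi1, Pgam1 and Ldha, limma adjusted p between 3.75e-05 and 0.0497) and 302 of all, so the adjusted p-values given below for these genes, which are without it, change sides with that choice. At an unadjusted p under 0.05 there were 6 of the 24, all lower, against 405 lower of 5783 (7%) and 740 in either direction (12.8%). In 4 of the 24 (Slc2a1, Tpi1, Pgam1 and Pkm) the arrays did not overlap and replicate 1 was lower by at least 0.5 on the log2 scale, against 4.34% of all tested. Within DMSO 21 of the 24 were lower in replicate 1 (52.7% of all tested), and within TCDD 20 of the 24 (49.8%).

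**Figure D1:**
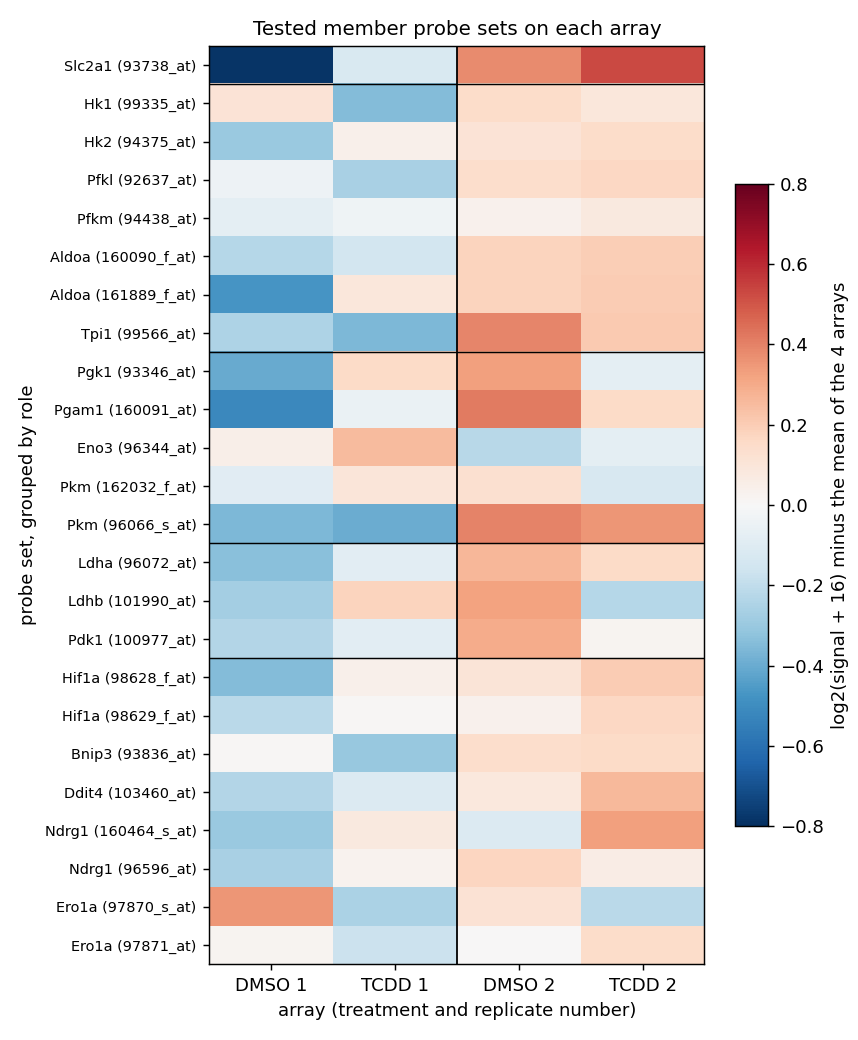
Each row is 1 tested probe set, grouped by role from glucose transport at the top to the hypoxia genes at the bottom, and each column 1 array, with both replicate 1 arrays on the left. Colour gives log2(signal + 16) minus the mean of the 4 arrays. In 16 of the 24 rows both replicate 1 arrays lie below both replicate 2 arrays, and Eno3 is the only row with the opposite order.

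Slc2a1 encodes GLUT1, the widespread glucose transporter that feeds glycolysis in embryonic tissue. Its signal was 65.2 in DMSO replicate 1, 165.6 in DMSO replicate 2, 112.8 in TCDD replicate 1 and 186.1 in TCDD replicate 2. Both replicate 2 arrays were higher than both replicate 1 arrays, while the treatment groups overlapped. The ratio of mean signals, replicate 2 over replicate 1, was 1.98. The log2 difference by replicate number was -0.91 ± 0.23 (SE, n = 2 each) with a limma adjusted p of 0.181, made up of -1.16 within DMSO and -0.65 within TCDD. TCDD minus DMSO gave 0.41 ± 0.35 (SE), 0.67 within replicate 1 and 0.15 within replicate 2. This treatment difference was -0.17 without DMSO replicate 1 and 0.99 without DMSO replicate 2.

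The other transporters on the array were dim. Slc2a3, which encodes the high-affinity transporter GLUT3, had signals between 9.7 and 36.3 at its probe sets 92292_at and 93804_at. Slc16a1, which encodes the lactate and pyruvate carrier MCT1, had signals between 11.8 and 18.6. None of them was tested.

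**Figure D2:**
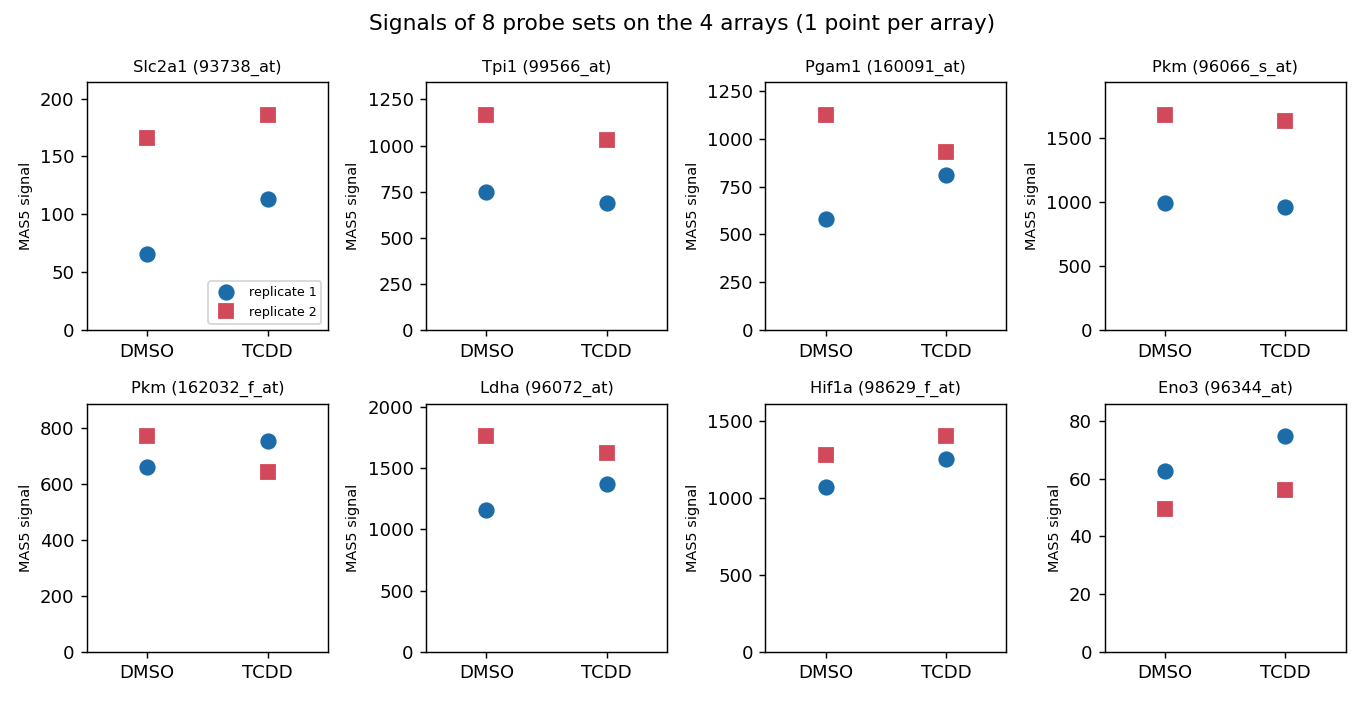
Each panel shows the MAS5 signal of 1 probe set, with the linear axis starting at 0. DMSO and TCDD stand on the horizontal axis, circles are replicate 1 arrays, squares are replicate 2 arrays, and each point is 1 array. Slc2a1, Tpi1, Pgam1, Pkm (96066_s_at), Ldha and Hif1a have both squares above both circles, Eno3 has them below, and the other Pkm probe set (162032_f_at) has them mixed.

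In the upper part of glycolysis, from hexokinase to triose phosphate isomerase, all 6 tested genes were lower in replicate 1 and 3 of 6 were higher in TCDD. Tpi1, triose phosphate isomerase, had DMSO signals of 745.5 (replicate 1) and 1167.8 (replicate 2) and TCDD signals of 688 (replicate 1) and 1029.7 (replicate 2). The replicate 2 arrays were higher by a ratio of 1.53. Its log2 difference by replicate number was -0.60 ± 0.15 (SE, n = 2 each), with a limma adjusted p of 0.161, and was close within DMSO (-0.64) and within TCDD (-0.57). By treatment it was -0.15 ± 0.25 (SE).

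Hk1, the hexokinase of most tissues, had overlapping arrays by replicate number. Its log2 difference there was -0.24 ± 0.17 (SE), -0.03 within DMSO and -0.44 within TCDD. Its signals were 3247.9 and 3327.8 in DMSO and 2356.5 and 3193.2 in TCDD. Both TCDD arrays were below both DMSO arrays, an order that 2 of the 24 probe sets had, as did 14.6% of all tested. The log2 difference of Hk1 by treatment was -0.26 ± 0.17 (SE), -0.46 within replicate 1 and -0.06 within replicate 2, so most of it lay in TCDD replicate 1. With quantile normalization this treatment difference was -0.11. Hk2, the inducible hexokinase, had DMSO signals of 67.9 and 95.1, against 89.8 and 98 after TCDD, with log2 differences of 0.19 by treatment and -0.26 by replicate number.

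Pfkl and Pfkm encode the liver and muscle types of phosphofructokinase, which commits sugar to glycolysis. Pfkl differed by -0.31 ± 0.16 (SE) by replicate number and by -0.10 by treatment, and Pfkm by -0.11 and 0.04. Aldoa, the main aldolase, had signals of 497.9 and 526.9 on the replicate 1 arrays and of 666.2 and 673.5 on the replicate 2 arrays at 160090_f_at. Its difference of -0.38 ± 0.14 (SE) by replicate number was also found at its other probe set 161889_f_at, at -0.38 ± 0.20 (SE). By treatment these probe sets gave 0.05 and 0.29, which became -0.16 and -0.03 without DMSO replicate 1 and 0.25 and 0.62 without DMSO replicate 2. The signals at 161889_f_at were 275.6 on DMSO replicate 1 and between 414 and 449.4 on the other arrays.

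Several enzymes of this stretch were below the minimum. Pfkp, the platelet type of phosphofructokinase, had signals of at most 24.2. Pfkfb3, which makes the allosteric activator of phosphofructokinase, had 74.4 in DMSO replicate 1 and between 30 and 32.6 on the other arrays at 160641_at, and at most 1.3 at 103577_at. Aldoc, the aldolase best known from brain, lay just under the minimum with signals between 42.8 and 49.9. Eno3, with a mean of 60.7, was the tested gene closest above it. The second probe set of Hk2 (161313_at) had signals of at most 4.6.

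In the lower part of glycolysis, 3 of the 4 tested genes were lower in replicate 1. Pgam1, phosphoglycerate mutase, had DMSO signals of 581.8 (replicate 1) and 1126.5 (replicate 2) and TCDD signals of 809.8 (replicate 1) and 933.4 (replicate 2). The order by replicate number held in both treatments, but the gap was wider in DMSO (-0.93) than in TCDD (-0.20), and this contrast was not tested. The pooled log2 difference was -0.57 ± 0.19 (SE, n = 2 each) with a limma adjusted p of 0.271. By treatment it was 0.10 ± 0.27 (SE), with 0.47 within replicate 1 and -0.27 within replicate 2.

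Pkm encodes the pyruvate kinase of embryonic and most adult tissues and makes its M1 and M2 forms by alternative splicing. At 96066_s_at the signals were 990.6 in DMSO replicate 1 and 962.9 in TCDD replicate 1, against 1685.3 and 1633.5 in DMSO and TCDD replicate 2. The arrays of each number were thus close to each other and the numbers far apart, with a ratio of 1.7. The log2 difference was -0.75 ± 0.13 (SE, n = 2 each) by replicate number and -0.04 ± 0.28 (SE) by treatment. Its limma adjusted p of 0.0915 by replicate number was the lowest of the 24. The other Pkm probe set, 162032_f_at, did not have this order: its signals were 658.4 and 768.7 in DMSO and 751.4 and 640.2 in TCDD, with a difference by replicate number of 0.00 ± 0.16 (SE). Which exons the probe sets lie in is not given in the sources used here.

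Pgk1, phosphoglycerate kinase, had opposite orders by replicate number in the treatments, a contrast that was not tested. Its signals were 492.4 and 827.2 in DMSO and 729 and 618.8 in TCDD, so that replicate 1 minus replicate 2 was -0.73 within DMSO and 0.23 within TCDD. Eno3, the enolase of skeletal muscle, was the only tested gene with both replicate 1 signals above both replicate 2 signals. Its signals were 62.7 and 74.6 on the replicate 1 arrays and 49.3 and 56.1 on the replicate 2 arrays, a log2 difference of 0.30 ± 0.20 (SE). Eno2, the enolase of neurons, had signals between 21.2 and 28.1 and Pgam2, the mutase of muscle, of at most 1.3.

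Gapdh, glyceraldehyde-3-phosphate dehydrogenase, is on this array only through control probe sets at the 3′ end, the middle and the 5′ end of its mRNA. At the middle probe set the signals were 2490.1 and 3304.6 in DMSO replicates 1 and 2 and 1914.1 and 2534.8 in TCDD replicates 1 and 2. All 3 sets had both replicate 1 signals below both replicate 2 signals, with log2 differences between -0.48 and -0.25. By treatment they differed by -0.16 at the 3′ end, -0.38 in the middle and -0.41 at the 5′ end, with overlapping groups. The 3 probe sets of the opposite strand had signals of at most 72.1.

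At the fate of pyruvate, all 3 tested genes were lower in replicate 1. Ldha, the lactate dehydrogenase subunit that favours lactate formation, had DMSO signals of 1154.8 (replicate 1) and 1760.5 (replicate 2) and TCDD signals of 1374.8 (replicate 1) and 1628.2 (replicate 2). Its log2 difference was -0.42 ± 0.15 (SE, n = 2 each) by replicate number, with a limma adjusted p of 0.278, and 0.07 ± 0.21 (SE) by treatment. Pdk1, the kinase that switches off pyruvate dehydrogenase and a classical HIF-1 target, had DMSO signals of 155.1 and 231.8, against 174 and 188.8 after TCDD, and differed by -0.32 ± 0.17 (SE) by replicate number. Ldhb, the other dehydrogenase subunit, had 118.4 and 187.5 in DMSO but 167.9 and 122.7 in TCDD, so its order by number turned between treatments. Its second probe set (161945_at) had signals of at most 12.

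Among the hypoxia genes, Hif1a, the oxygen-regulated subunit of HIF-1, was lower in replicate 1 at both probe sets. At 98628_f_at the signals were 930 and 1281.6 in DMSO replicates 1 and 2 and 1224.2 and 1372.1 in TCDD replicates 1 and 2. The log2 differences by replicate number were -0.31 ± 0.17 and -0.20 ± 0.15 (SE) at 98628_f_at and 98629_f_at, and by treatment 0.24 ± 0.19 and 0.18 ± 0.17 (SE). The treatment differences were 0.02 and 0.05 without DMSO replicate 1 and 0.47 and 0.31 without DMSO replicate 2. HIF-1 is governed mainly through degradation of the Hif1a protein, which an mRNA signal does not show. Ddit4, which encodes the mTOR inhibitor REDD1, had 360.4 and 394.6 on the replicate 1 arrays and 452.8 and 515.1 on the replicate 2 arrays, a difference of -0.34 ± 0.15 (SE). Bnip3, a mitophagy receptor gene, differed by -0.29 ± 0.19 (SE) by replicate number and by -0.15 by treatment.

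Ndrg1 and Ero1a were the hypoxia genes whose treatment groups did not overlap at a probe set. Ndrg1, a stress-responsive differentiation gene, had 84.4 and 98.5 under DMSO, against 114.4 and 139.4 after TCDD at 160464_s_at, a log2 difference of 0.41 ± 0.22 (SE). It was the only probe set of the 24 with both TCDD signals above both DMSO signals, where 15.3% of all tested had that order. Its other probe set (96596_at) overlapped and gave 0.09 ± 0.22 (SE). Ero1a, listed under its older symbol Ero1l, encodes an oxidase that forms disulphide bonds in the endoplasmic reticulum. At 97870_s_at it had 218.3 and 183.1 under DMSO, against 138.5 and 142.3 after TCDD, a log2 difference of -0.47 ± 0.20 (SE) with an unadjusted p of 0.0427 and, in limma, an adjusted p of 0.997. The probe set 97871_at of the same gene gave -0.03 ± 0.21 (SE), with overlapping groups.

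Vegfa and Adm, which encode secreted factors acting on blood vessels, were below the minimum. Vegfa had 15.1 and 35.3 in DMSO replicates 1 and 2 and 4 and 54.2 in TCDD replicates 1 and 2, so the replicate 2 arrays were higher in both groups. Adm had 3.5 and 11.7 under DMSO, against 2 and 5.7 after TCDD. Most of the 14 probe sets below the minimum did not have this order: 7 had both replicate 1 signals above both replicate 2 signals (Slc16a1, Pgam2, Eno2, both of Pfkfb3, and the dim ones of Hk2 and Ldhb), 3 had them below (Vegfa, Adm and Pfkp at 97834_g_at) and 4 overlapped. The share of each order over all probe sets below the minimum was not computed, so these counts cannot be set against other dim probe sets. The median signal over all probe sets was 47 on DMSO replicate 1 and between 39.9 and 40.7 on the other arrays. Without the minimum, 20 of 28 genes were lower in replicate 1 and 8 higher, with a median of -0.24 beside 0.04 over all genes. Some of these cells were stored as calendar days and were turned back into signals, and none of the 24 tested probe sets holds such a cell.

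**Figure D3:**
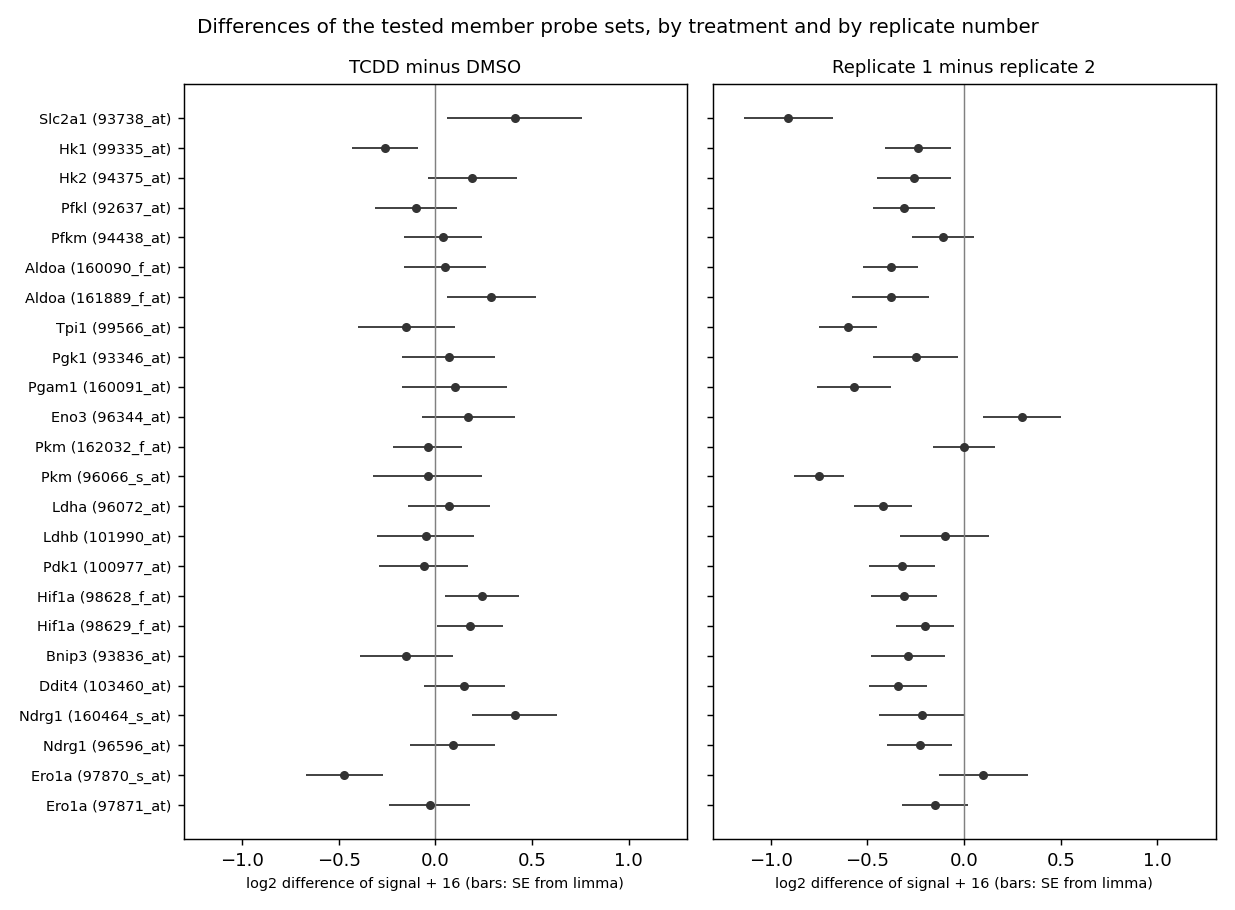
Points are log2 differences of signal + 16 for the 24 tested probe sets, TCDD minus DMSO on the left and replicate 1 minus replicate 2 on the right, and bars are standard errors from limma. The treatment differences lie on both sides of 0, between -0.47 and 0.41, whereas 21 of the 24 replicate differences lie below 0.

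Other genes of the same pathways did not all follow the replicate number. Of the 20 tested genes in a list of other hypoxia-responsive genes, 11 were lower and 9 higher in replicate 1 (median -0.09), and 0 passed limma's adjusted p in either direction or comparison. Lox, which encodes a collagen-crosslinking oxidase, had signals of 228.6 and 298.9 on the replicate 1 arrays and of 130 and 131.1 on the replicate 2 arrays. Its difference of 0.92 ± 0.18 (SE) ran opposite to those of Slc2a1 and Pkm. Igfbp3, an insulin-like growth factor binding protein gene, had a difference of -1.17 ± 0.24 (SE) from 95083_at but of -0.14 from the brighter 95082_at. Angptl4, a lipase inhibitor gene, gave 0.82 ± 0.23 (SE) from 96118_at, whereas 96119_s_at gave -0.38 and 102114_f_at gave 0.15. Ier3 and Kdm3a had the order of Slc2a1 and Pkm without overlap, at -0.82 ± 0.24 and -0.54 ± 0.20 (SE).

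Among HIF regulators 7 of 8 tested genes were lower in replicate 1 (median -0.24) and 6 of 8 were higher in TCDD (median 0.09), with 0 called in either comparison. Egln1, the prolyl hydroxylase that marks Hif1a for degradation, differed by -0.30 ± 0.16 by replicate number, the coactivator gene Crebbp by -0.38 ± 0.18 (95886_g_at) and the chaperone gene Hsp90aa1 by -0.28 ± 0.15 (SE). Arnt was just below the minimum at 92529_s_at, with DMSO signals of 47.1 and 59, against 24.9 and 65.7 after TCDD. There both replicate 1 signals were below both replicate 2 signals. Its dimmer probe set, 97185_at, had the opposite order, with 18.4 and 8.2 under DMSO and 13.6 and 11.5 after TCDD.

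The neighbouring carbohydrate pathways had medians between -0.05 and 0.15 by replicate number, beside -0.01 over all genes tested. Other genes of glycolysis and glycogen entry had 2 of 7 lower in replicate 1 (median 0.04), with Pgm1, phosphoglucomutase, at 0.36 ± 0.16 (SE). By treatment 6 of the 7 were higher in TCDD (median 0.14), as were 2429 of all 4595 genes tested. Both TCDD signals lay above both DMSO signals for Minpp1, at 0.41 ± 0.23, and Pgm2, at 0.39 ± 0.24 (SE). The same order was found for Gys1, at 0.17 ± 0.20, and Gpd2, at 0.12 ± 0.22 (SE), and for 15.3% of all tested probe sets. By replicate number Minpp1 gave -0.31 ± 0.23 and Pgm2 0.04 ± 0.25 (SE). Pyruvate oxidation and gluconeogenesis had 1 of 7 lower (median 0.15), with Dlat, a subunit gene of pyruvate dehydrogenase, at 0.39 ± 0.18, Pck2 at 0.33 ± 0.21 and Pdhb at -0.25 ± 0.15 (SE). The pentose phosphate pathway had 3 of 5 lower (median -0.05). Its Tkt, transketolase, had the smallest unadjusted p by treatment, at 0.42 ± 0.21 (SE) with a limma adjusted p of 0.997, and Pgls differed by -0.36 ± 0.22 (SE) by replicate number. In each of these 3 lists 0 genes passed in either direction or comparison.

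**Figure D4:**
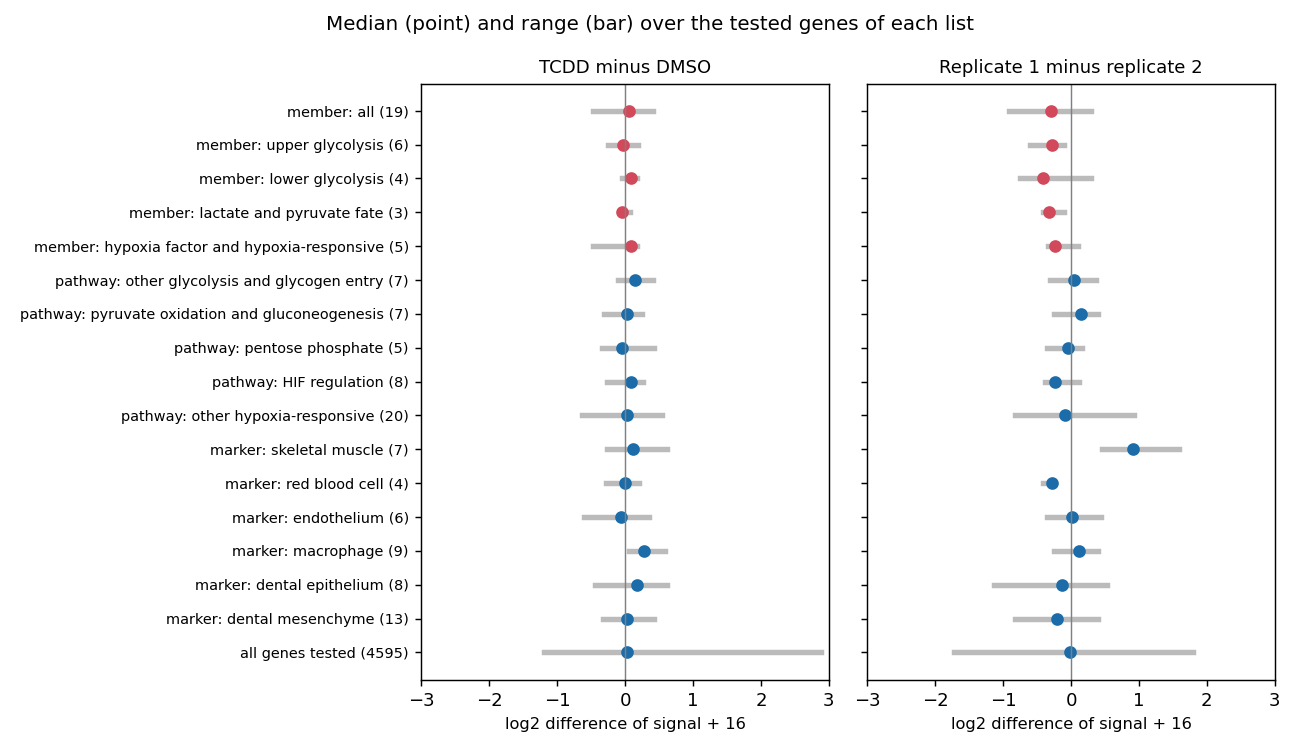
Points are medians and bars the lowest and highest log2 difference over the tested genes of each list, with their number in brackets, for lists with at least 3 tested genes. The listed glycolysis and hypoxia genes are in red. By replicate number their median is -0.29, skeletal muscle markers stand at 0.91 and all 4595 genes at -0.01.

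Other measures moved with the replicate number as well. All 7 tested skeletal muscle markers of 18 on the array were higher in replicate 1 (median 0.91). Over the 18 their summed signal was 1251.8 and 1569.8 on the replicate 1 arrays and 565.3 and 623.1 on the replicate 2 arrays. Of the defining muscle markers Actc1 (101029_f_at) had 457.2 and 612.4 on the replicate 1 arrays and 152.3 and 180.3 on the replicate 2 arrays, while Tnni2 had at most 3 and Tnnt3 at most 9.2. The 4 tested red blood cell markers of 9 on the array were all lower in replicate 1 (median -0.28). Over the 9 their summed signal was 4559.3 and 3732.7 on the replicate 1 arrays and 5028.3 and 4908.1 on the replicate 2 arrays, and Epb42 was at or near 0 with at most 7.8. Dental mesenchyme markers, of the main tissue of the explant beside epithelium, were lower in replicate 1 for 10 of 13 tested genes (median -0.21), with summed signals over the 14 on the array of 2950.8 and 3135.3 on the replicate 1 arrays and 3536.3 and 3591.7 on the replicate 2 arrays. Dental epithelium markers were lower for 4 of 8 (median -0.13). The part of these tissues in the differences of the glycolysis genes was not tested.

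Control probe sets on the arrays also differed. The 9 probe sets of the BioB, BioC, BioDn and CreX hybridisation controls, which are bacterial and phage transcripts spiked in during hybridisation, all had both replicate 1 signals above both replicate 2 signals, by a median of 1.04 on the log2 scale. The beta-actin control probe sets differed by -0.27, -0.29 and -0.34 between replicate 1 and 2, close to the median of -0.29 over the glycolysis and hypoxia genes. Among bright probe sets, whose signals averaged 500 or more, 208 of 638 (32.6%) had both replicate 1 signals below both replicate 2 signals, against 7 of the 10 of the listed genes at that brightness. The ratio of 3′ to 5′ signal was 1.13 in TCDD replicate 1 and between 0.77 and 0.81 on the other arrays for Gapdh, and between 1.08 and 1.23 for beta-actin. With quantile normalization the median by replicate number was -0.30, again with 17 of 19 genes lower. The part of amplification, labelling and hybridisation in the differences was not tested.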

How the data were processed

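Expression was measured on 4 murine U74v2A arrays, 2 of DMSO and 2 of TCDD. Per the labels, the authors computed intensity signals with MAS5 (Affymetrix Microarray Suite 5.0), 1 per probe set, scaled to a target of 100. Of 49952 deposited cells, 18515 (37.1%) held a day serial (38718 to 38990) and were turned into day.month, after which the mean with 2% trimmed at each end came to 100.05 for every array. Gene names came from GEO's platform annotation through Entrez IDs (GRCm38.p6 gene table), with 10833 of 1 symbol outside the 66 controls, of which 10817 matched. limma 3.58.1 in R 4.3.3 (lmFit, eBayes with trend) was fitted on log2(signal + 16), without a block, once by treatment and once by replicate number. The fit was also run on simulated data with independent noise at its own variances. These data leave out the correlation of same-numbered arrays given below, so they cannot show how the fit behaves under it. Errors are SE from the fit. Nothing says the pools of a group are independent beyond separate samples, so p-values measure the spread between these samples. For each probe set limma drew that spread towards the spread of all tested probe sets. This pooling gave 8.8 of 10.8 degrees of freedom by treatment and 6.5 of 8.5 by replicate number. By replicate number each side held 1 DMSO and 1 TCDD array, so treatment differences counted as spread, and the reverse by treatment. The number of samples limits the precision.

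Every listed gene is named. Per-array signals are given where arrays did not overlap with a log2 difference of at least 0.5, and for other genes chosen after their values were seen. Genes of other pathway lists were named by the smallest p, up to 3 per list, with Arnt, Gys1, Gpd2, Ier3 and Kdm3a besides. The listed genes and gene lists were chosen with earlier results of these data known. Alternatives were another offset, minimum, normalization, handling of day serials, variance model and block, averaged probe sets and each array left out.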

Additional observations from a re-analysis of the deposited data

How the results depend on the processing

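No probe set of the glycolysis and hypoxia genes passed by treatment under any alternative tried, and the median by treatment lay between -0.22 (without DMSO replicate 1) and 0.25 with 1 array left out. All probe sets called by treatment numbered 2 without the minimum, 32 with the replicate block and 2 to 5 with 1 array left out, against 4. By replicate number the median stayed below 0 throughout, at -0.40 to -0.27 with 1 array left out. The 1 probe set called in all became 0 without the minimum, with a minimum of 100 and with quantile normalization, 5 with day serials set to 16, 302 with the treatment block and 13 to 1325 with 1 array left out. Of the 24 tested, 5 passed with the treatment block, which is the replicate block fit read the other way (limma adjusted p 3.75e-05 for Pkm at 96066_s_at, 0.00053 for Slc2a1, 0.00913 for Tpi1, 0.0188 for Pgam1 and 0.0497 for Ldha), and 0 to 12 with 1 array left out (12 without TCDD replicate 1, 5 without DMSO replicate 1). The labels do not say what a shared number means, and it was not taken as a pairing. Deviations of same-numbered arrays from their group means correlated at 0.38 over all tested probe sets, across probe sets that are not independent.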
